A study of Mus musculus with 141 samples.

Results

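The zinc finger genes examined were the mouse protein-coding genes whose symbol is Zfp followed by a number and that lie on chromosomes 7, 8, 13 or 17. There were 188 of them among 21631 protein-coding genes of chromosomes 1 to 19 and X, 90 on chromosome 7, 25 on chromosome 8, 32 on chromosome 13 and 41 on chromosome 17. A gene with another Zfp gene within 100 kb was called clustered and any other gene single, which gave 137 clustered genes in 27 clusters and 51 single genes. No methylation value entered this choice. At the 100 kb limit, Zfp72 and Zfp825 (87517 bp apart) were the pair just inside it, and Zfp936 and Zfp715 (104413 bp apart) the pair just outside it.

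The cells were mouse glioma cells carrying the IdhR132H mutation, which makes the enzyme produce 2-hydroxyglutarate. In one arm they were grown with 1 µM AG-881 (vorasidenib), an inhibitor of mutant IDH, and in the other with the solvent DMSO, both for more than 2 weeks. Both arms carried the mutation, so there was no arm without it, and as the labels tell of no further cultures, an arm counts here as 1 culture. Live cells (calcein AM positive, TO-PRO-3 negative) were sorted singly and profiled by reduced representation bisulfite sequencing, in which MspI cuts at CCGG and enriches CpG-dense DNA, jointly with Smart-seq2. There were 67 AG-881 cells in library pools 1 to 4 and 74 DMSO cells in library pools 5 to 8. Pool and arm cannot be told apart, because no pool held cells of both arms.

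Many Zfp genes encode tandem C2H2 zinc fingers joined to a KRAB domain, and they arose by tandem duplication, which left them in clusters. The KRAB domain recruits TRIM28, which brings in the histone H3 lysine 9 methyltransferase SETDB1 and HP1 proteins, and many of these proteins silence retrotransposons. Mutant IDH makes 2-hydroxyglutarate, which inhibits the TET enzymes that oxidise 5-methylcytosine.

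A cell contributed a median of 89440 called CpGs in the AG-881 arm (23895 to 190259) and 67749 in the DMSO arm (10438 to 165853). Levels are percentages of calls that were methylated, at CpGs with a call in 5 or more cells per arm, and intervals are 95% Clopper-Pearson intervals that cover counting error only. Where no call was methylated, the limit given is 3 divided by the number of calls. That limit is lower than the upper Clopper-Pearson bound. A region counted as measured with at least 50 calls from 10 cells in each arm. A level over a set of genes pools the calls of every gene with a call there, measured or not, while medians and counts of genes cover measured regions. With 1 culture per arm no test was possible, and all differences below are descriptions of these 2 cultures.

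The 4 neighbouring genes Zfp709, Zfp882, Zfp617 and Zfp961 on chromosome 8 show how far promoters of one cluster differed, and Zfp710 and Zfp180 are the single and the clustered gene with the most methylated start among measured starts. Their RefSeq promoter sequences (build GRCm38.p6, 250 bases before to 50 after a listed start, all on the plus strand) are given with CG pairs in capitals. They lie at chr8:71881818-71882117, chr8:71908356-71908655, chr8:71922575-71922874, chr8:71950816-71951115, chr7:80024564-80024863 and chr7:24081647-24081946, in the order printed. Zfp180, Zfp710, Zfp961 and Zfp617 were chosen for display after their values were seen.
Zfp709: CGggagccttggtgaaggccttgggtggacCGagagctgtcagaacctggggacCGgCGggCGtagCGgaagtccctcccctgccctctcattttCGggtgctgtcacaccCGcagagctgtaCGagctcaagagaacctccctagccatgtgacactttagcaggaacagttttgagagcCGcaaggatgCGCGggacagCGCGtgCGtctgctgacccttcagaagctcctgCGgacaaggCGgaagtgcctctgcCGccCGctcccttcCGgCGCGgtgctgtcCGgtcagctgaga
Zfp882: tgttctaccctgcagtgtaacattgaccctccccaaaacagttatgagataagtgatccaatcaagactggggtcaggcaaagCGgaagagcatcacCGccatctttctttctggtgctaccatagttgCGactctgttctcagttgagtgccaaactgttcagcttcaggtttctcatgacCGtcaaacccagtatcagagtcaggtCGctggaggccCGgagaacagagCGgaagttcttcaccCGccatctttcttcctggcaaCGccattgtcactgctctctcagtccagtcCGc
Zfp617: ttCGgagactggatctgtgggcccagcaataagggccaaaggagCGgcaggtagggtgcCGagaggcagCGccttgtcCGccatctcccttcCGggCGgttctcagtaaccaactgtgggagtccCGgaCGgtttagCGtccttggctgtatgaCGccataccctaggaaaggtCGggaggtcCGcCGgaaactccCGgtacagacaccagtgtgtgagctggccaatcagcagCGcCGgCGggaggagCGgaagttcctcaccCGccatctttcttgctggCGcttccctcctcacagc
Zfp961: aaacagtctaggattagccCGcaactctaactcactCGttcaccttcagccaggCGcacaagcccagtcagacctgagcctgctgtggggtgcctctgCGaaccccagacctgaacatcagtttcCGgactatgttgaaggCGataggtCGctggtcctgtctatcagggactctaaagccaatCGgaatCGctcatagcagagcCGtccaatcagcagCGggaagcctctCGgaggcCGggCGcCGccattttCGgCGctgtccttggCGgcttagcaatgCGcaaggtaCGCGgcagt
Zfp710: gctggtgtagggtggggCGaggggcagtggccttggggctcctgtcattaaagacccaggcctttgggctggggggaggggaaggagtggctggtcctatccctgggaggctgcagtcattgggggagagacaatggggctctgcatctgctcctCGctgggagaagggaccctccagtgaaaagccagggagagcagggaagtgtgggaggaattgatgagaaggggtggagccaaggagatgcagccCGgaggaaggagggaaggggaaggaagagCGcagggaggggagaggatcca
Zfp180: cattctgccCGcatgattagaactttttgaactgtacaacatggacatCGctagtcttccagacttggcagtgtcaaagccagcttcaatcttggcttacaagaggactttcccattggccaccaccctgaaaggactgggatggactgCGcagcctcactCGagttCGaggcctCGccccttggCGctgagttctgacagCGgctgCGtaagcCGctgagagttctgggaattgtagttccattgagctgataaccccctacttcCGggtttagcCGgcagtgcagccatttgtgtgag

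The Zfp709 promoter held 23 CG pairs, that of Zfp882 10, that of Zfp617 21 and that of Zfp961 21, against 4 for Zfp710 and 12 for Zfp180.

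The starts of the Zfp genes were almost free of methylation. Within 1 kb of the start, 2.97% of calls were methylated in AG-881 cells (2.71 to 3.26, 15199 calls) and 3.53% in DMSO cells (3.23 to 3.85, 14144 calls), against 6.12% and 6.85% at the starts of the other 4773 genes of the same chromosomes. Of the 188 genes, 62 had a measured start, namely 36 of 137 clustered and 26 of 51 single genes. Of the others, 4 had no start assigned and 30 had no position of the file near the start. Another 39 had positions but no CpG called in 5 or more cells of each arm, and 53 had too few calls.

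The median start level over the 62 genes, as the mean of both arms, was 0.326%, against 0.773% over 1912 measured starts of other genes on these chromosomes. In 25 of the 62 genes no call was methylated in either arm. A level below 5% was found at 56 of the 62 starts (90.3%), against 75.2% of the other genes' starts. Above 20% stood 4 of the 62 (6.45%), against 13.9% of the others. Among the starts with most depth, Zfp1 had 0 of 193 methylated calls in AG-881 and 0 of 184 in DMSO, which allows up to 1.55% and 1.63%. Zfp143, which encodes an activator of small nuclear RNA genes, had 0 of 187 and 0 of 229 (limits 1.60% and 1.31%), and Zfp213 had 0 of 190 and 0 of 219 (limits 1.58% and 1.37%). Zfp568, a KRAB zinc finger gene needed in the mouse embryo, had 0 of 122 and 0 of 78 (limits 2.46% and 3.85%), its start being the CpG-denser end because its strand was not known.

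**Figure D1:**
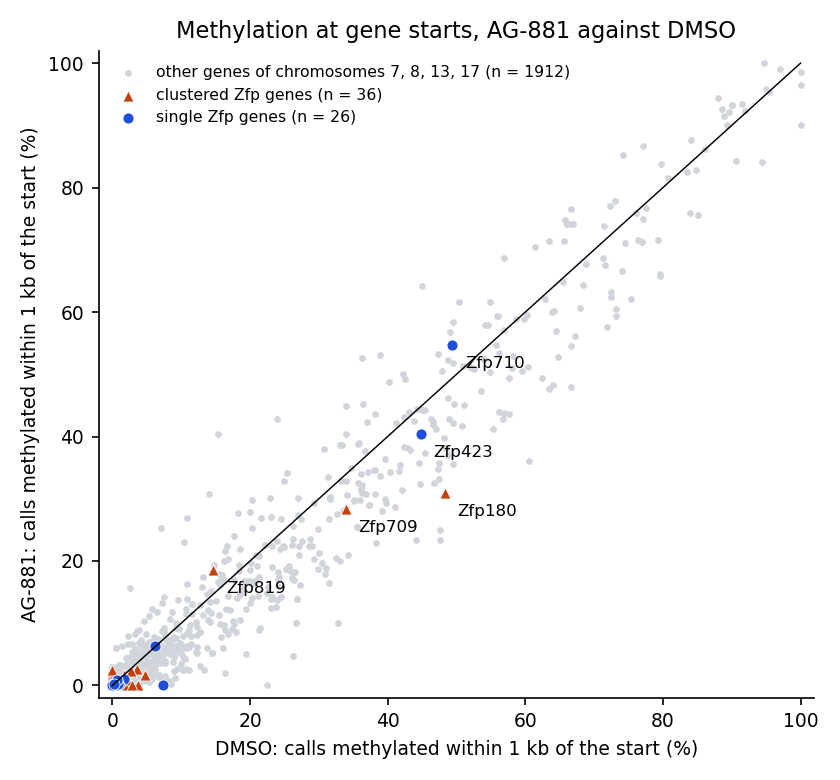
Percentage of calls methylated within 1 kb of the start in DMSO cells (x axis) and AG-881 cells (y axis), 1 point per gene, with clustered Zfp genes as triangles, single Zfp genes as blue circles, other genes of the 4 chromosomes in grey and the line of equality. Most of the 62 Zfp genes sit near 0 in both arms, and 5 named genes lie between 14.7% and 54.6%.

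The 4 starts above 20% held 441 of the 951 methylated calls at Zfp starts (46.4%). Zfp710, a single gene, had 54.6% in AG-881 (44.2 to 64.8, 97 calls) and 49.4% in DMSO (38.2 to 60.6, 83 calls). Zfp423, a single gene whose protein acts in BMP and EBF signalling and in cerebellar development, had 40.5% (33.8 to 47.3, 215 calls) and 44.8% (37.5 to 52.3, 183 calls). Its start was taken at the outer end of the gene, where no start is listed. Within 1 kb of its nearest listed start, 2458 bp away, Zfp423 had 1.52% (990 calls) in AG-881 and 1.20% (1085 calls) in DMSO. The clustered Zfp180 had 31% (20.5 to 43.1, 71 calls) and 48.3% (37.6 to 59.2, 89 calls), and Zfp709 had 28.4% (22.2 to 35.1, 201 calls) and 33.9% (26.8 to 41.7, 165 calls). Zfp819 followed with 18.5% and 14.7%, and after it came Zfp169 with 6.38% and 6.15%. Below those, Zfp768 (2.28% and 2.63%), Zfp994 (0% and 3.7%) and Zfp472 (1.64% and 1.71%) were the next among starts with at least 100 calls and 15 cells in each arm.

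At these starts the calls of single cells differed in kind. Of the cells with at least 3 calls at Zfp180, 8 of 16 DMSO cells had only unmethylated calls, 7 only methylated calls and 1 both, and of 12 AG-881 cells 8, 2 and 2 did so. At Zfp709 most cells had both kinds of call, 22 of 25 in DMSO and 22 of 30 in AG-881. Zfp423 was alike, with both kinds in 23 of 25 DMSO and 25 of 31 AG-881 cells. At Zfp710, 8 of 11 and 10 of 18 cells had both. CpGs within Zfp709 ranged from 10.0% to 91.7% methylated (median 20.8% over 21 CpGs), and those of Zfp423 from 15.4% to 90.0%, while the 6 CpGs of Zfp180 lay between 28.6% and 50%. A cell has 2 alleles and the calls carry no allele, so mixed calls from CpGs within 1 molecule and from different alleles cannot be told apart.

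**Figure D2:**
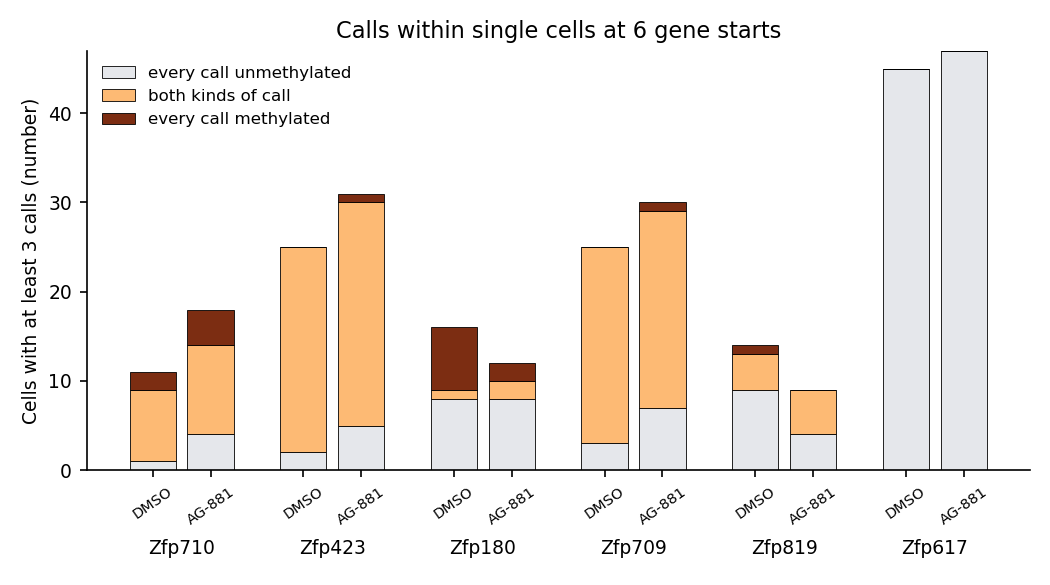
Number of cells with at least 3 calls within 1 kb of the start of 6 genes, by arm, divided into cells with every call unmethylated (grey), both kinds of call (orange) and every call methylated (brown). Zfp180 has 7 fully methylated and 8 fully unmethylated DMSO cells, Zfp423 and Zfp709 mostly mixed cells, and Zfp617 only unmethylated ones.

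Start levels differed between neighbours in a cluster. Within 88.3 kb on chromosome 8 (71882068 to 71970333), Zfp709 stood at 28.4% and 33.9% in AG-881 and DMSO. The next gene, Zfp882, had 2.52% (0.523 to 7.19, 119 calls) and 0 of 131 calls (limit 2.29%), and Zfp617 had 0 of 368 and 0 of 304 (limits 0.815% and 0.987%). Zfp961 had no methylated call among 45 and 80, too few in AG-881 to count as measured. Zfp709 was above both measured neighbours in each of the 8 pools, with 29.6%, 32.2%, 25.5% and 26.6% in pools 1 to 4 and 30.6%, 29.6%, 33.3% and 40% in pools 5 to 8. Part of the gene Gm5373 lay within 2 kb of the start of Zfp709, so the window may belong to both.

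The largest clusters were mostly unmethylated at their starts. The 15 genes from Zfp84 to Zfp146 on chromosome 7 had 0.315% in AG-881 and 1.69% in DMSO, with 4 starts measured. The 10 genes from Zfp180 to Zfp94 had 17.1% and 25.5%, but Zfp180 was their only measured start. On chromosome 8, the 5 genes from Zfp868 to Zfp866 had 0 of 214 calls and 0.455%. On chromosome 13, the 14 genes from Zfp712 to Zfp748 had no measured start, and the 5 genes from Zfp738 to Zfp273 had 0 of 170 and 0 of 136 calls. On chromosome 17, the 13 genes from Zfp677 to Zfp943 had 7.44% and 8.52%, and the 8 genes from Zfp871 to Zfp563 had 2.39% and 3.39%. Zfp677, whose start did not reach the minimum, had 23 of 56 and 21 of 42 calls methylated within 1 kb of its listed start.

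Clustered and single genes differed little at the starts taken from their outer ends, and more at listed starts. With both arms pooled, 3.42% of calls were methylated at clustered starts and 3.12% at single starts, a difference of 0.298 points (-0.122 to 0.728). The sign depended on settings: it was -0.270 with CpGs called in at least 2 cells, -0.660 with each CpG given the same weight, 1.19 without Zfp423 and 2.49 with CpGs called in at least 10 cells. Median levels were 0.445% over 36 clustered and 0.326% over 26 single genes. Levels above 20% were seen at 2 starts of each kind. At listed starts, 3.40% of calls were methylated in clustered and 1.91% in single genes with both arms pooled, a difference of 1.49 points (1.11 to 1.87). The clustered level was close to that at outer ends, and the single level was lower. Median levels at listed starts were 0.641% over measured clustered and 0.326% over measured single genes. In pool 1 the levels were alike (1.55% and 1.56%), and in every other pool the clustered level was higher.

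CpG density differed between the kinds of gene. The listed promoters of clustered genes held a median of 11 CG pairs and those of single genes 17, against 11 for other genes of the 4 chromosomes. CCGG, the site cut by MspI, occurred in 67.9% of clustered, 83.6% of single and 59.4% of other promoters. TGCCGC, a motif bound by ZFP57, occurred in 13.8% of Zfp promoters and 12.7% of the others.

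Starts above 20% were also counted among promoters of like CG content. Of measured listed starts with 0 to 4 CG pairs, 1 of 3 of Zfp genes exceeded 20% (33.3%), that of Zfp710, against 6 of 25 of other genes (24%), and the medians were 8.23% and 5.89%. In the denser classes the share above 20% was smaller among Zfp starts. With 5 to 9 pairs, 1 of 13 of Zfp genes exceeded 20% (7.69%) against 32 of 92 of other genes (34.8%). With 10 to 19 pairs it was 2 of 28 (7.14%) against 93 of 515 (18.1%), and with 20 or more 1 of 32 (3.13%) against 141 of 1352 (10.4%). Some listed starts of 1 gene share CpGs, so these counts are not independent and were not tested.

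**Figure D3:**
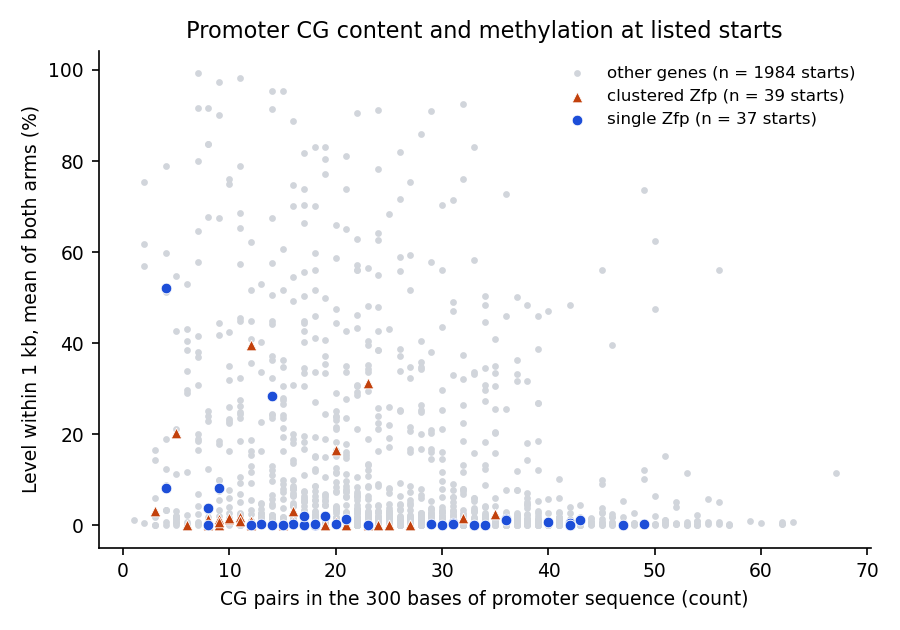
Number of CG pairs in the 300-base promoter sequence (x axis) against the methylation level within 1 kb of the listed start, mean of both arms (y axis), for clustered (triangles) and single (blue circles) Zfp genes and other genes of the 4 chromosomes (grey). The Zfp starts lie near 0 over the whole range of CG counts with 6 above 15%.

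AG-881 cells had slightly lower start levels. The difference AG-881 minus DMSO was -0.554 points over all Zfp starts (-0.967 to -0.144), -0.825 over clustered (-1.51 to -0.147) and -0.363 over single ones (-0.887 to 0.156). At starts of the other genes of these chromosomes it was -0.732 points. At starts of the 179 Zfp genes on the other chromosomes it was -0.0343 points (-0.397 to 0.327), with 3.38% in AG-881 and 3.42% in DMSO. Pools 1 to 4 (AG-881) stood at 2.28%, 2.92%, 3.92% and 2.81%, and pools 5 to 8 (DMSO) at 3.56%, 3.58%, 3.78% and 3.25%. Pool 3 was above every DMSO pool, so the pools of the arms overlapped. The mean over 67 AG-881 cells was 3.04% ± 1.87 (SD), and that over 74 DMSO cells 3.67% ± 2.62 (SD).

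By gene, 26 of the 62 starts were lower with AG-881, 11 were higher and 25 had 0 in both. Among 1912 measured starts of other genes of these chromosomes, 1033 were lower, 584 higher and 295 equal. The start of Zfp180 was at least 10 points lower (1 of 62), where 3.32% of 8891 measured starts of all protein-coding genes were, and no Zfp start was at least 10 points higher, where 0.877% were. Its difference was -17.3 points (-32.4 to -1.17), with 0%, 34.5%, 26.1% and 50% in pools 1 to 4 and 51.7%, 27.3%, 70.6% and 47.6% in pools 5 to 8. These pools overlap, and each holds at most 29 calls. With listed starts in place of outer ends, 3 of 63 Zfp genes were at least 10 points lower and none was higher, against 3.2% and 0.93% of 7848 genes. Among starts with at least 100 calls, the largest decreases after Zfp709 (-5.58 points) and Zfp423 (-4.34) were Zfp994 (-3.7) and Zfp382 (-1.17). Zfp994 had no methylated call in pools 1 to 4 and 2.63% to 5.26% in pools 5 to 8. The largest increases at that depth were Zfp882 (2.52 points), Zfp563 (1.89), Zfp358 (0.387) and Zfp169 (0.238), each with an interval that holds 0. Measured starts with fewer calls moved further, down by 7.35 points at Zfp808 and up by 5.24 at Zfp710 and 3.85 at Zfp819.

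Few CpGs were covered at the other ends of the genes. Calls were present at 17 genes, 11 clustered and 6 single, and 5 had a measured other end. Zfp423 had 98.3% in AG-881 and 94.7% in DMSO, and Zfp36, which encodes the mRNA decay factor tristetraprolin and has CCCH rather than C2H2 fingers, had 45.8% and 46.2%. Among clustered genes, Zfp53 had 18% and 21.1%, Zfp771 2.70% and 6.20%, and Zfp78 1.28% and 0%. The end of Zfp78 lay within 2 kb of an end of Zfp28 and that of Zfp53 within 2 kb of an end of Zfp52, so these windows also cover a neighbour. Zfp28 and Zfp52 start downstream of Zfp78 and Zfp53 on the same strand, so the windows may cover their starts. The listed start of Zfp28 had the same levels as the end of Zfp78, 1.28% of 78 calls in AG-881 and 0% of 72 in DMSO. Zfp771, Zfp36 and Zfp423 had no other gene's end that near. Zfp771 gave 799 of the 1947 calls, and its difference was -3.49 points (-6.80 to -0.486).

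Over all other ends, clustered genes had 16.2% and 23.6% and single genes 65.3% and 67%. These pooled levels include ends below the minimum, such as the clustered Zfp758 with 83.3% of 48 calls and 94.2% of 69. The clustered level also includes the ends of Zfp78 and Zfp53, so it is not that of gene ends clear of other genes. The difference of clustered minus single, both arms, was -46.4 points (-51.1 to -41.4). It was -36.6 points without Zfp423 and -28.1 (-33.7 to -22.2) without Zfp771.

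With AG-881 the other ends of all Zfp genes stood at 28% (25.3 to 30.9, 1021 calls) and with DMSO at 34.2% (31.2 to 37.4, 926 calls). The difference was -6.22 points (-10.4 to -2.03), against -0.478 (-1.18 to 0.220) at other ends of the other genes of these chromosomes. Pools 1 to 4 had 29.8%, 27.2%, 26.1% and 28.7%, all below pools 5 to 8 with 34.2%, 33.3%, 37.5% and 32.7%. Zfp771 gave 43.5% of the calls in AG-881 and 38.3% in DMSO, and without it the difference was -4.18 points (-10.1 to 1.73). It was -1.36 with each CpG given the same weight and -0.261 (-8.07 to 7.56) in windows of 500 bp. None of the 5 measured ends differed by 10 points between arms, where 6.22% of 482 measured other ends were at least 10 points lower and 2.7% higher.

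**Figure D4:**
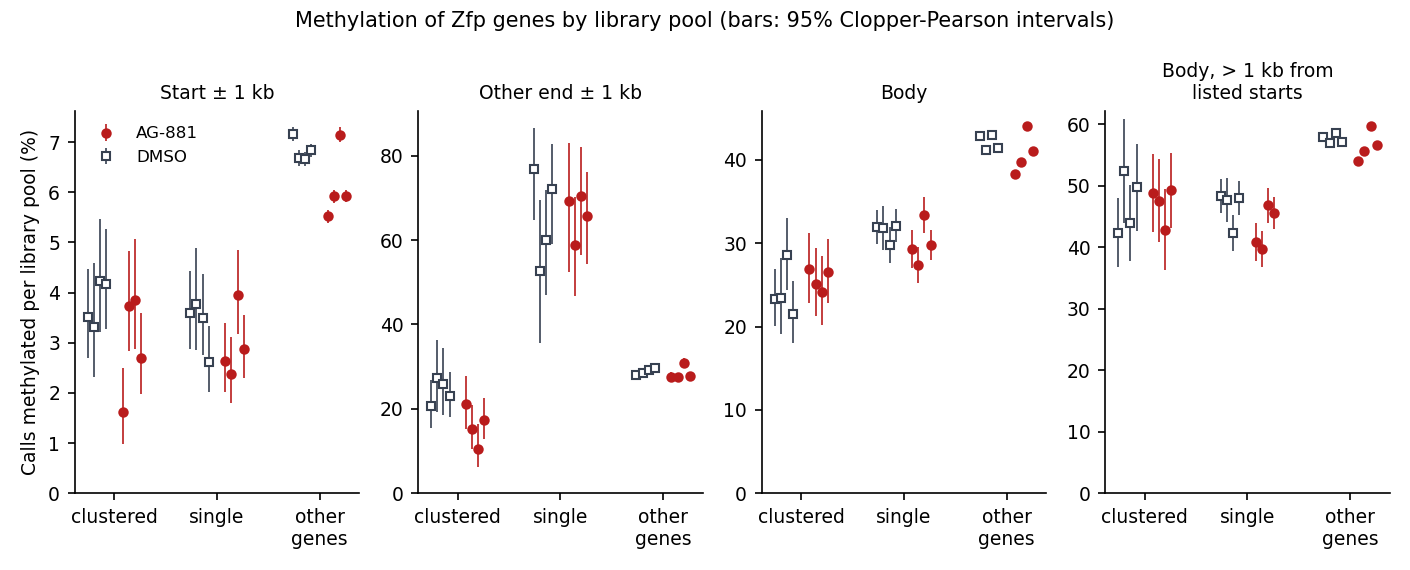
Percentage of calls methylated in each library pool, with 95% Clopper-Pearson intervals, for clustered Zfp, single Zfp and other genes of the 4 chromosomes at starts, other ends, bodies and bodies more than 1 kb from any listed start (DMSO open squares, AG-881 filled circles). Single genes stand at 52.8% to 76.9% at other ends and clustered genes at 10.5% to 27.2%, while at starts both kinds lie below 5%.

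Bodies, the parts more than 1 kb from both ends, were measured in 32 genes, 13 clustered and 19 single. Over all Zfp genes 29.2% of calls were methylated with AG-881 and 29.9% with DMSO, against 40.9% and 42.2% in bodies of other genes of the 4 chromosomes. Gene levels ran from 0% in 6 genes to 99.2%, with a median of 15.2% (other genes 54.1%). The median was 0.943% over clustered and 26% over single genes. Below 5% stood 8 of 13 clustered and 4 of 19 single bodies, and above 20% stood 3 and 12. Of 992 measured bodies of other genes of the 4 chromosomes, 12.5% were below 5% and 73.6% above 20%.

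In several low bodies the covered CpGs lay at a listed start of the gene inside its outer ends. For Zfp787 (0 of 310 and 0 of 372 calls), Zfp428 (0 of 114 and 0 of 129) and Zfp959 (0 of 98 and 0 of 104), every body CpG was within 1 kb of the only start listed for the gene, and for Zfp708 (0 of 96 and 0 of 55) within 1 kb of one of its 2 listed starts. So were those of Zfp57, which encodes the protein that keeps imprinted regions methylated, has 3 listed starts and had 7.69% in AG-881 and 8.77% in DMSO. Of the 8 bodies with every CpG at a listed start of some gene, 5 were below 5% and 2 above 20%, with a median of 1.07%. Of the 15 with no CpG at one, 4 were below 5% and 9 above 20%, with a median of 33.1%.

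High bodies were those of Zfp319 (100% and 98.3%) and the clustered Zfp865 (97.7% and 98.0%), whose starts stood at 0.787% and 0.615%, and 0% and 0.575%. The body of Zfp169 (97.3% and 97.4%, start 6.38% and 6.15%) was as high although all its 8 CpGs were at a listed start, which belonged to another gene. In 12 of the 32 bodies some CpGs were below 10% and others above 80%: Zfp827 had 61 and 32 of its 97, and Zfp423 108 and 51 of its 185. Within 1 kb of a start listed for the gene itself lay 15 of the 97 CpGs of Zfp827 and 89 of the 185 of Zfp423.

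The pooled body contrast of clustered and single genes turned with the CpGs used, while the medians over genes did not. Over all bodies clustered genes were lower, 24.9% against 30.7% with both arms pooled, a difference of -5.79 points (-7.35 to -4.20). More than 1 kb from every listed start of any gene it was 46.6% against 45%, 1.62 points (-0.857 to 4.11), over 38 clustered and 26 single genes with a call. Of the genes measured there, 6 clustered ones had a median of 6.54% with 3 below 5%, and 12 single ones a median of 46% with 1 below 5%. It was also positive with a minimum of 1, 2 or 10 cells per arm for a CpG (7.55, 4.86 and 4.09 points). Zfp423 alone gave 3801 of the 18655 body calls, and without it the difference was -7.39.

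In bodies, AG-881 minus DMSO was -0.741 points over all Zfp genes (-2.06 to 0.576), 1.64 over clustered (-1.15 to 4.44) and -1.40 over single ones (-2.89 to 0.0904). Of the 32 genes 18 were lower, 8 higher and 6 at 0 in both. Among 992 measured bodies of other genes of the 4 chromosomes, 569 were lower, 394 higher and 29 equal. Bodies of 2 genes were at least 10 points lower, where 6.33% of 4231 measured bodies were, and none was at least 10 points higher, where 3.33% were. Zfp52 had 10.0% (50 calls) against 30.4% (56 calls), with all its 7 CpGs at a listed start, and Zfp13 had 38.8% against 49.2%. The largest decreases among bodies with at least 100 calls were Zfp791 (-7.27 points, 17 of 18 CpGs at a listed start), Zfp703 (-6.20, -11.7 to -0.727) and Zfp469 (-5.39, -10.3 to -0.470). Zfp536, whose product restrains neuronal differentiation, was higher by 4.92 points, with 58% in pool 4 against 18.3% to 39.4% in pools 1 to 3, and stood at -6.22 without pool 4. Zfp574 (3.36) and Zfp710 (1.29) followed.

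By distance from the start, covered bins of clustered genes beyond 1000 bp upstream stood above every bin up to 4000 bp downstream. Among genes with a known strand, clustered Zfp genes had 3.69% from 0 to 500 bp downstream and 0 of 251 calls from 1000 to 500 bp upstream (both arms), but 21.6% between 1500 and 1000 bp upstream and 56.2% between 3000 and 2500 bp. Downstream they had 1.22% between 500 and 1000 bp, 16.1% between 2000 and 2500 bp, 0.212% between 3000 and 3500 bp and 11.1% between 3500 and 4000 bp. Single genes had 0 of 428 calls methylated between 2500 and 2000 bp upstream, 14.7% between 3000 and 3500 bp downstream and 35% between 3500 and 4000 bp. In clustered genes the upstream bins named are thin, with 16, 13 and 7 CpGs from the nearest to the farthest, as is that from 2000 to 2500 bp downstream with 15.

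**Figure D5:**
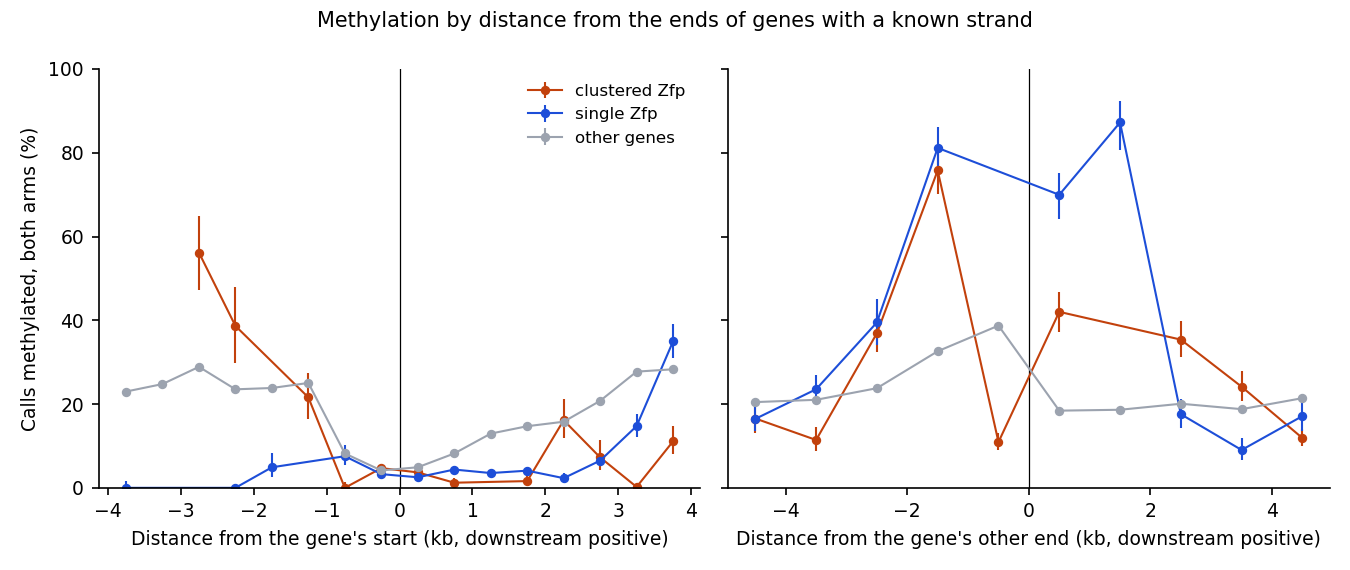
Percentage of calls methylated, both arms, by distance from the start (left, 500 bp bins) and from the other end (right, 1 kb bins) for genes with a known strand, with 95% Clopper-Pearson intervals. Bins with under 100 calls are not drawn and lines join those that remain. Upstream of the start, clustered genes climb from 0% in the bin from 1000 to 500 bp to 56.2% in that from 3000 to 2500 bp.

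The partners through which KRAB zinc finger proteins act had little start methylation where it was measured. So had most genes: of 8829 measured starts in the genome, the Zfp genes examined left out, 76.3% were below 5%. Of 27 listed genes, among them Trim28, Setdb1, the HP1 genes Cbx1, Cbx3 and Cbx5, Dnmt1 and Uhrf1, 20 had a measured start. Cbx5 and Dnmt1 had no call at the start. Of the 20 measured starts, 7 were lower and 8 higher with AG-881 and 5 equal, with a median difference of 0. Among the 8829 starts, 4466 were lower, 2723 higher and 1640 equal. None of the 20 was past 10 points, where 3.32% of 8891 measured starts of all protein-coding genes were at least 10 points lower and 0.877% higher. The highest start level was that of Setdb1, 8.65% with AG-881 and 7.79% with DMSO. Dnmt3b, a de novo DNA methyltransferase gene, had 0.905% and 4.30%. Trim28 had 0 of 90 and 0 of 50 calls, and did not reach the minimum for a measured start. Of 11 measured bodies 3 were lower, 7 higher and 1 equal. Among 4199 measured bodies in the genome, the Zfp genes examined left out, 2378 were lower, 1672 higher and 149 equal.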

How the data were processed

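Methylation calls of 141 single cells (67 AG-881, 74 DMSO) were used, and the transcriptomes were not analysed here. The deposited table gives, per cytosine position and cell, a methylated fraction (0, 0.5 or 1) without read counts, so the read depth of a call is unknown. Positions are in mm10, per the submitters' processing notes, and for aligner and caller: not given in the sources used here. Columns name the arm and library pool but not the well, so they were assigned to arms, and 0 columns belonged to no group.

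Adjacent positions were merged as the strands of 1 CpG, which gave 1322177 CpGs. Ties, 0.649% of calls, were left out, and 396065 CpGs with a call in 5 or more cells per arm were used. Gene positions came from RefSeq GRCm38.p6. The start was the outer end given by the strand (165 genes) or, without a strand, the CpG-denser end (19), and 4 genes had none. CpGs within 1 kb of the start were left out of the other end. Listed starts are those of the RefSeq promoter table, which also holds starts inside genes. Of 1333 file positions inside Zfp promoter sequences, 97.9% fell on CG.

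Calls were pooled over cells and genes, and a CpG in the windows of several Zfp genes counted once in a pooled level. Intervals of differences combine those of the groups compared. Calls within a cell are not independent, so intervals are too narrow. No test was run, as cells and genes are not replicates of a condition. A difference of at least 10 points was counted as called.

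Members and lists were chosen with earlier results of these data known. Named genes had at least 100 calls and 15 cells in each arm: the 6 highest and 3 lowest starts, the 4 largest decreases and 4 increases at starts, 3 of each at other ends and in bodies, the 2 largest clusters per chromosome, and measured genes with a textbook role. Zfp180, Zfp710, Zfp808, Zfp819, Zfp617, Zfp961 and the bodies and other ends outside this rule were named after their values were seen. Alternatives changed the minimum of cells, CpG weights, strand merging, windows, cluster distance, minimum calls, nearby genes, symbols and pools. Added after seeing the data were starts by strand only, listed starts, and leaving out Zfp423 or Zfp771. The scripts were tested on simulated data. Python 3.11.15, NumPy 2.4.6, SciPy 1.17.1, pandas 2.3.3 and matplotlib 3.10.9 were used.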

Additional observations from a re-analysis of the deposited data

Results flagged for a closer look

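Bodies of single Zfp genes had 29.7% of calls methylated in DMSO pool 7, while the other 3 DMSO pools stood at 31.8%, 31.9% and 32.1%. Pool 7 was singled out because its gap to the nearest other pool was 0.854 of the whole range of the 4 pools. Of 18 sets of 4 pools examined this was 1, and chance singles out about 1 in 20 such sets. The cause was not tested.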

How the results depend on the processing

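Of 274 recomputed comparisons 201 stayed close to the reported value, 69 moved and 4 reversed; of 401 values of single genes and gene numbers 392 stayed close, 9 moved and none reversed. AG-881 minus DMSO at starts stayed negative under every alternative run. No paired analysis was possible because the replicate numbers follow accession order and each arm was 1 culture. With CpGs called in at least 10 cells no call remained at other ends of single genes, so that contrast gave no value. Except where fewer CpGs, genes or calls make the difference, the cause was not tested.

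With CpGs called in at least 1, 2 or 10 cells of each arm, start levels were 4.39%, 4.21% and 2.11%, other ends 35.5%, 34.8% and 17.8%, and bodies 38.9%, 36.7% and 12.9%. The contrast of clustered minus single bodies reversed to 7.55, 4.86 and 4.09 points, and to 1.62 away from listed starts. At starts it was -0.270 (2 cells) and 2.49 (10 cells), and at other ends -34.8 (1 cell) and -35.0 (2 cells). With each CpG weighted alike, starts were 3.76% and bodies 34.5%, the contrasts -0.660 (starts) and -9.03 (bodies), and the arm difference at other ends -1.36 points. Without merging strands, bodies were 28.8%. Windows of 500 bp gave 2.84% at starts, 20.8% at other ends and 25.1% in bodies, a start contrast of 1.43 and an arm difference of -0.261 at other ends. Windows of 2 kb gave 3.91%, 43.1% and 36.7%, contrasts of -34.7 (other ends) and -17.1 (bodies), and an arm difference of 0.609 in bodies. Without ends near another gene, starts were 3.73%, other ends 34.2% and the start contrast -1.23. Symbols with a letter gave 27.4% in bodies. Strand alone gave -54.1 points at other ends. Listed starts gave 2.50% at starts, 45.3% in bodies, a start contrast of 1.49 and an arm difference of -2.35 in bodies. Without Zfp423, levels were 2.70%, 26.9% and 30.4%, and contrasts 1.19, -36.6 and -7.39. Without Zfp771, other ends were 49.6% and their contrast -28.1.

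Starts at least 10 points lower with AG-881 (1 in the report) numbered 3 with regions of 20 calls or with listed starts and 0 with regions of 200 calls, and higher ones numbered 1 with 20 calls. Leaving out 1 pool at a time they numbered 0 to 1, 0 without pool 2 or pool 3, where Zfp180 had under 50 calls. Bodies at least 10 points lower (2 in the report) numbered 1 with 1, 2 or 10 cells, a 2 kb window or listed starts, 0 with 200 calls, and 0 to 1 leaving out a pool; higher ones numbered 1 with the 2 kb window and 0 to 1 leaving out a pool. Depth limits most genes: 126 of the 188 starts were not measured.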
